A study of Mus musculus with 8 samples.

Results

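The comparison is of adherent against floating culture in Cbx3-deficient mouse neurospheres, made under the hypothesis that the labels of 2 arrays were exchanged. Its members are 5 of the 8 arrays of the series, chosen by their Cbx3 signal: the probe A_55_P1969072 had to lie under the array's 75th percentile. Side 1 holds the array titled -/- adherent rep1 (called KO adherent 1) and the array titled +/+ floating rep2 (called the array labelled WT floating 2), which counts as a second adherent KO array only if that hypothesis holds. Side 2 holds the arrays titled -/- floating rep1, rep2 and rep3 (called KO floating 1, 2 and 3). The remaining 3 arrays, titled +/+ floating rep1, +/+ floating rep3 and -/- adherent rep2, had high Cbx3 signal and entered no comparison of sides.

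Neurospheres are clusters of neural stem and progenitor cells that grow in suspension, and the same cells can also be grown attached to a surface. Attachment is carried by integrins, which bind the extracellular matrix and link it to focal adhesions and the actin cytoskeleton. HP1gamma, the product of Cbx3, is a member of the heterochromatin protein family and reads methylated histones.

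All samples were mouse cells of the ganglionic eminence, the part of the embryonic telencephalon that forms the striatum and many cortical interneurons, taken at E14.5. Each sample came from 1 embryonic brain and was used after serial passage as quaternary neurospheres. These were grown for 7 days with EGF and bFGF at 20 ng per ml each. Heparin was also given to every sample, at the same dose throughout. The genotype label of the KO floating and KO adherent 1 arrays is HP1gamma KO, and that of the array labelled WT floating 2 is wild type. The sources used here do not say how the deletion was made, whether the Cbx3 probe lies in the deleted part, or whether arrays of the 2 cultures share an embryo. The treatment label reads floating or adherent, but the culture text of every sample describes low-attachment plates, so the adherent condition is known by its name alone. P-values therefore measure only the spread between these arrays, which may be technical.

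The Cbx3 values that chose the arrays are given as a description, with no test. All levels here are log2 processed signal minus the array's 75th percentile. Cbx3 was at -2.03 on KO adherent 1 and -2.17 on the array labelled WT floating 2. It was at -1.86, -2.76 and -1.75 on KO floating 1, 2 and 3. The array just inside the rule was thus KO floating 3 at -1.75, and the array just outside was WT floating 1 at 5.83. The other arrays outside the rule had 5.95 (WT floating 3) and 5.91 (the array labelled KO adherent 2). By Cbx3 alone, an exchange of the labels WT floating 2 and KO adherent 2 would restore 1 level per genotype. The exchange remains a hypothesis, because the Cbx3 level says nothing about the culture in which the cells were grown.

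Stem cell markers were present on all 5 arrays, and the markers of other brain cells were mixed. All 6 neural stem and radial glia markers (Nes, Sox2, Fabp7, Slc1a3, Vim and Msi1) were well above background on all 5 arrays. Of the 4 markers of the ganglionic eminence, Dlx2 was above background on all 5 arrays and Gsx2 and Nkx2-1 on none. All 3 neuronal markers, all 3 oligodendrocyte markers and the ependymal marker Foxj1 were above background throughout, as were 2 of 3 astrocyte markers, while Gfap was so on 1 array. Of 4 microglia markers 3 were on no array above background (Aif1, Cx3cr1 and Ptprc), as were 2 of 3 endothelial markers (Cdh5 and Cldn5) and 2 of 3 mesenchymal markers (Pdgfrb and Lum). The 75th percentile of signal ranged from 616 to 865 over the 8 arrays. The share of spots above background was 55.0% on KO adherent 1 and 55.4% on the array labelled WT floating 2, against 54.5%, 47.5% and 50.6% on KO floating 1, 2 and 3. Xist, expressed from the inactive X chromosome, was between 1.71 and 2.20 on 4 of the 5 arrays and at -6.27 on KO floating 3. Ddx3y, a Y-linked gene, was at 2.16 on KO floating 3 and at -6.09 or lower on the other 4 arrays.

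No feature passed the test between the sides. In all, 24037 features (genes or unmatched probes) were tested with limma, and 0 were called higher on side 1 (0.0%) and 0 lower (0.0%) at an adjusted p of 0.05. The smallest adjusted p was 1 after rounding. An unadjusted p under 0.05 was reached by 177 features, 0.736% of those tested. If nothing differed between the sides, a share of about 0.05 of the features would reach it. The share found was well below that, so the test was conservative on these arrays. The absence of calls is therefore no evidence that the sides are alike. Whether the spread between arrays of the same side led to this was not tested. KO adherent 1 alone against the 3 KO floating arrays, the contrast that needs no exchange, also gave 0 calls (0.0%) with limma, and 309 features had an unadjusted p under 0.05. That fit has 1 array on one arm, takes all its spread from the floating arrays and assumes that KO adherent 1 varies like them, so its 0 adds nothing to the comparison of the sides.

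The sides overlapped for most features. Both side 1 arrays were above all 3 KO floating arrays in 864 features (3.59%) and below all of them in 588 (2.45%). Both side 1 arrays lay inside the range of the KO floating arrays in 9758 features (40.6%).

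Single arrays differed least within the same-numbered pairs and most between KO floating 2 and 3. Over the 20551 features above background on all 5 arrays, KO adherent 1 and KO floating 1 differed 2-fold or more in 281 features. The array labelled WT floating 2 and KO floating 2 differed so in 455. These were the fewest of all 10 array pairs. KO floating 1 and 3 differed in 490 features, KO floating 1 and 2 in 1526, and KO floating 2 and 3 in 2704, the most of all. Next came a pair across the sides, the array labelled WT floating 2 and KO floating 3, with 2233. The 2 arrays of side 1 differed from each other in 1555 features, more than each differed from its own numbered floating array.

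**Figure D1:**
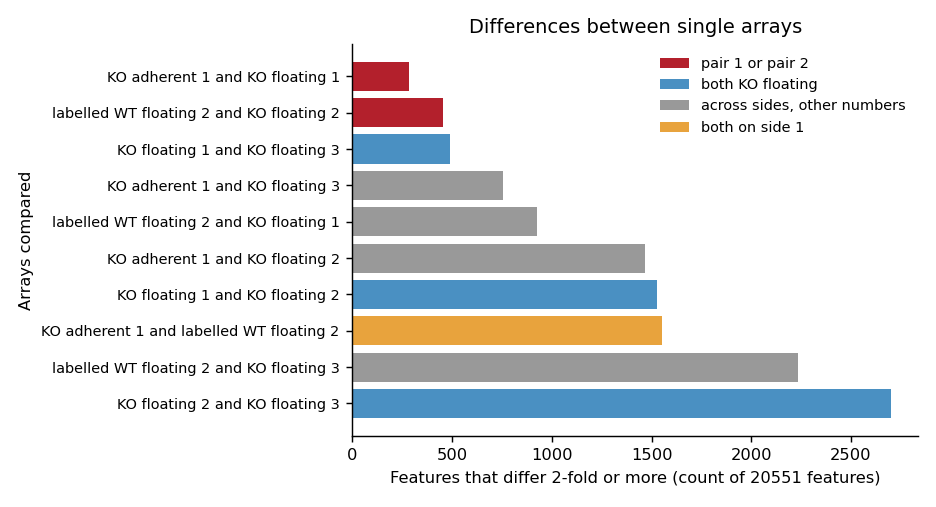
Count of features with a difference of 2-fold or more (x axis) for each of the 10 pairs of single arrays (y axis), over 20551 features above background on all 5 arrays; colours mark same-numbered pairs across sides, arrays of one side and other pairs. The same-numbered pairs sit lowest at 281 and 455, while arrays of one side reach 1555 (side 1) and 2704 (KO floating 2 and 3).

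The numbers in the titles allow the comparison to be repeated within numbers. Pair 1 is KO adherent 1 minus KO floating 1, and pair 2 is the array labelled WT floating 2 minus KO floating 2. The pairs share no array, and each holds 1 array a side, so differences within a pair have no test. In pair 1, 351 features were 2-fold or more higher and 245 lower (2.48% together). In pair 2, 727 were higher and 253 lower (4.08% together), beside a share of spots above background of 55.4% against 47.5%. The part of that gap in the counts was not tested.

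Few features differed the same way in both pairs. There were 51 features 2-fold or more higher on side 1 in both pairs (0.212%), which is 14.53% of those higher in pair 1 and 7.02% of those higher in pair 2. Another 5 were lower in both pairs (0.0208%), or 2.04% and 1.98% of the lower features of each pair. The 51 were dim: their highest mean on side 1 was -2.35, 37 were not above background on any KO floating array, and none was so on all 3. The filter let in 3464 features only through side 1 and 22 only through side 2, beside the shares of spots above background given earlier. All of the 51 passed the filter through side 1 alone, so nothing is read from the surplus of 51 over 5. Among features above background on all 5 arrays, 0 were higher in both pairs (0.0%) and 3 were lower (0.0146%).

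The genes named from this small group were near the limit of detection. Epha7, a receptor for ephrins in axon guidance, was at -4.03 and -4.13 on side 1 and at -6.45, -5.84 and -5.74 on KO floating 1, 2 and 3. Its sides did not overlap, but it was above background on both side 1 arrays and on none of the KO floating arrays, so the difference is a bound of at least 1.12-fold higher (limma adjusted p = 1). Such a bound sets the mean of side 1 against the higher of the dim signal and the lowest signal above background on each floating array. Aldh1a3, which makes retinoic acid, was at -4.22 and -4.19 against -5.62, -6.30 and -5.94, a bound of at least 1.03-fold. With the floating values raised in this way, the differences in pair 1 and pair 2 were 0.55 and -0.11 for Epha7. They were 0.36 and -0.16 for Aldh1a3, so pair 2 showed no higher level on side 1 for either gene.

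Col6a2, a chain of collagen VI, was at -3.14 and -3.30 on side 1 and at -4.24, -4.74 and -4.80 on the KO floating arrays. It was above background on 1 of the 3 floating arrays, and it was not called (limma adjusted p = 1). In pair 2, KO floating 2 was not above background, and the difference was 0.72 once that value was raised to the array's lowest signal above background. Angptl1, a secreted angiopoietin-like protein, was at -3.18 and -3.28 against -4.31, -4.72 and -4.26. Olfr600 (an odorant receptor gene), Cplx3, Igfbp1, Pnmt and Kndc1 completed the list, each with side 1 levels of -3.34 or lower. With values below background raised likewise, their pair 2 differences were -0.19 (Olfr600), -0.69 (Cplx3), 0.28 (Igfbp1), -0.25 (Pnmt) and 0.68 (Kndc1). For Olfr600 and Cplx3 no bound on the side difference could be given.

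Lower on side 1 in both pairs was Llgl2, a regulator of epithelial polarity. It was at -4.81 and -5.73 on side 1 and at -2.62, -3.21 and -3.61 on the KO floating arrays. It was above background on all 3 floating arrays and on neither side 1 array, a bound of at least 2.94-fold lower (limma adjusted p = 1). Ascl3, a basic helix-loop-helix transcription factor, was measured on all 5 arrays, at -3.79 and -4.28 against -2.48, -2.48 and -3.39. Clasp2, which stabilises the plus ends of microtubules, was at -2.23 and -2.73 against -1.79, -2.02 and -1.85, less than 2-fold in both pairs. Slc12a8, Agrp and Rabepk were also lower on side 1 without overlap, with side differences of -0.83, -1.04 and -0.46.

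Across features the pairs ran against each other. The Pearson correlation of the pair differences was -0.285 (Spearman -0.320) over 24037 features, and -0.508 (Spearman -0.431) over the 20551 features above background on all 5 arrays. Features are not independent replicates, and all points come from the same 4 arrays. The signs were opposite in 62.6% of all features. A difference of 2-fold or more in opposite directions was seen in 126 features that were lower in pair 1 and higher in pair 2 (0.524%) and in 54 with the reverse order (0.225%), 180 in all against 56 that were 2-fold in the same direction.

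**Figure D2:**
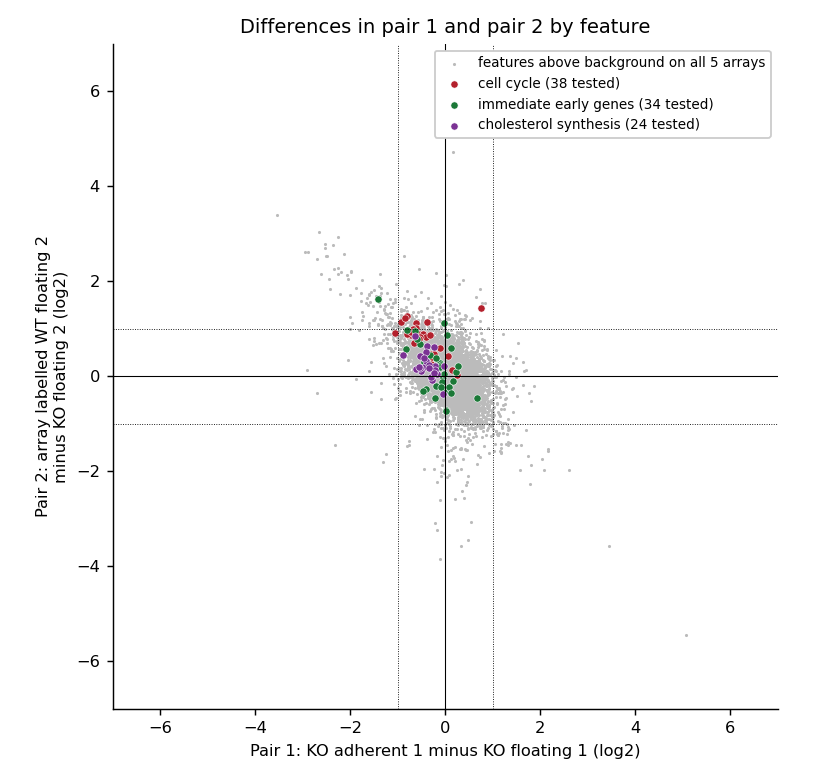
Log2 difference in pair 1 (KO adherent 1 minus KO floating 1, x axis) against pair 2 (array labelled WT floating 2 minus KO floating 2, y axis) for features above background on all 5 arrays (grey) and the tested members of 3 gene lists (colours); dotted lines mark 2-fold. The cloud runs from upper left to lower right (r = -0.508), and the cell cycle genes lie mostly at upper left.

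The opposed features are described over all 5 arrays. Of the 142 opposed features above background on all 5 arrays (100 lower in pair 1, 0.487%, and 42 higher, 0.204%), the median absolute difference was 1.40 in pair 1 and 1.49 in pair 2, which follows from how they were picked. The same features differed by a median of 0.39 between KO adherent 1 and KO floating 2, and by 0.34 between the array labelled WT floating 2 and KO floating 1. These values come from the same 4 arrays that picked the features, so nothing is read from them. KO floating 3, which the choice did not use, was nearer to KO floating 1 and the array labelled WT floating 2 in 107 of the 142. It was so in 81 of the 100 lower in pair 1 and in 26 of the 42 higher. The same share over all features is not given. Over all features above background on all 5 arrays, KO floating 3 differed 2-fold from KO floating 1 in 490 and from KO floating 2 in 2704. Nothing is therefore read from the 107.

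Single genes show the size of this pattern. Ctsz, a lysosomal cysteine protease, was at -0.63 on KO adherent 1 and -0.84 on KO floating 2. It was at 2.56 on the array labelled WT floating 2, 2.90 on KO floating 1 and 3.64 on KO floating 3. Its pair differences were -3.53 and 3.40, and the side means differed by -0.94 (SE 1.62, limma adjusted p = 1).

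Tfpi, the inhibitor of the tissue factor pathway of coagulation, had the reverse order. It was at 1.99 on KO adherent 1 and 1.87 on KO floating 2, and at -1.71, -1.46 and -2.29 on the array labelled WT floating 2, KO floating 1 and KO floating 3. All 3 Tfpi probes above background gave the pattern, with pair 1 differences between 2.82 and 3.45 and pair 2 differences between -2.81 and -3.58.

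Gas6, a ligand of the TAM receptor tyrosine kinases, was at 1.21 and 0.65 on KO adherent 1 and KO floating 2, and at 3.36, 3.74 and 4.47 on the array labelled WT floating 2, KO floating 1 and KO floating 3. Cd93, a transmembrane lectin-like receptor, parted the same arrays as Gas6, at 0.20 and 0.51 against 3.04, 2.70 and 3.81. Gdf15, a stress-induced member of the TGF-beta family, was spread more widely, at 0.06 and -2.01 against 1.02, 2.71 and 4.05. Col26a1, a collagen, was at -2.46 and -2.22 against 0.40, 0.42 and -0.25, and Nudt7, a peroxisomal coenzyme A hydrolase, had pair differences of -2.54 and 2.79.

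With Tfpi, Six3 was low on the array labelled WT floating 2 and KO floating 1. Six3, a homeobox gene of the anterior forebrain, was at -2.32 and -2.15 there, at -0.07 and -0.35 on KO adherent 1 and KO floating 2, and at -1.36 on KO floating 3. Plin3, a coat protein of lipid droplets, was at -0.21 and -0.28 against 1.52 and 1.65, with 1.04 on KO floating 3. Igf2bp2, an mRNA-binding protein, was at -1.69 and -1.30 against 0.27 and 0.29. Emid1 and Atp13a4 were the remaining named genes of this order. The most opposed feature of all was an unmatched probe, A_30_P01030915, named after its values were seen, with 1.76 and 2.12 against -3.33 and -3.31, and 2.08 on KO floating 3.

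**Figure D3:**
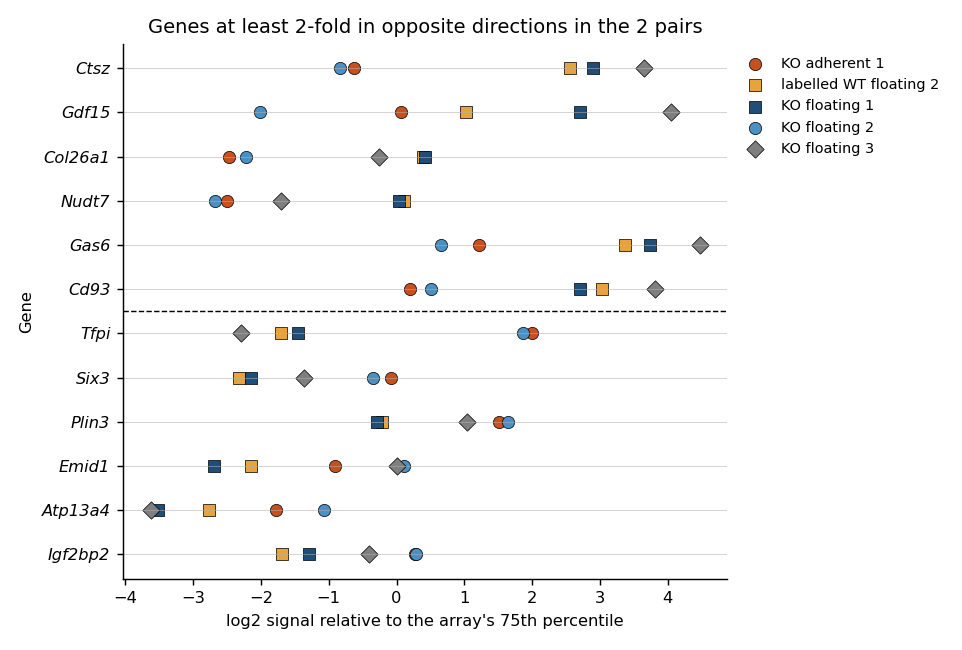
Level of 12 genes (y axis) on each of the 5 arrays as log2 signal relative to the array's 75th percentile (x axis), 1 symbol per array; genes above the dashed line were lower in pair 1 and higher in pair 2, those below the reverse. KO adherent 1 and KO floating 2 (circles) lie apart from the array labelled WT floating 2 and KO floating 1 (squares). Ctsz is at -0.63 and -0.84 against 2.56 and 2.90. For Gdf15 the circles are spread, at 0.06 and -2.01 against 1.02 and 2.71. The genes were picked for opposed pair differences on these same arrays.

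Genes of proliferation carried the opposition as a group. The cell cycle list held 40 genes, of which 38 were tested, 36 of them above background on all 5 arrays. None of the 38 was called. In whole cultures, fewer cells in division and less RNA per cell cannot be told apart. In pair 1 the median member was lower on side 1 by -0.54, in pair 2 higher by 0.86, beside medians of 0.01 and 0.04 over all features. This order (lower in pair 1, higher in pair 2) held in 34 of 38 members, against 33.6% of all features. The array labelled WT floating 2 had the highest level of the 5 arrays in 35 of 38 members, against 17.6% of all features.

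The median cell cycle member was at 0.84 on KO adherent 1, 2.19 on the array labelled WT floating 2, and 1.46, 1.20 and 0.94 on KO floating 1, 2 and 3. The difference between sides thus moved with either array of side 1. Its median was 0.23 with all arrays, -0.33 without the array labelled WT floating 2 and 0.74 without KO adherent 1. Within slide row 1, which holds the array labelled WT floating 2 with KO floating 1 and 2, the median difference was 0.64. Within row 2, which holds KO adherent 1 and KO floating 3, it was -0.14.

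Mki67, the nuclear proliferation antigen, was at 2.32 on KO adherent 1 and 3.96 on the array labelled WT floating 2, and at 2.93, 2.84 and 2.33 on KO floating 1, 2 and 3. Ccnb2, a mitotic cyclin, was at 1.82 and 2.93 against 2.54, 2.05 and 1.89. Cdc20, which activates the anaphase-promoting complex, was at 2.30 and 3.18 against 2.85, 2.30 and 2.34. These examples were picked after their values were seen, and in all of them the highest value is that of the array labelled WT floating 2.

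Ccnd1, a D-type cyclin of early G1 phase, was at 3.41 and 4.82 against 4.22, 3.92 and 4.74, so that here KO floating 3 was nearly as high. Pcna, the sliding clamp of DNA polymerase, was at 4.62 and 4.89 against 4.74, 4.29 and 4.75. Cenpf, a kinetochore protein, was 1 of 4 members higher in both pairs by any amount, beside 23.2% of all features. It was at -3.62 and -3.58 on side 1 and -4.37, -5.03 and -5.16 on the floating arrays, where it was above background on none (a bound of at least 1.49-fold, limma adjusted p = 1). Kif20a, a mitotic kinesin, was at -6.05 on KO floating 3 and between 0.51 and 2.21 on the other 4 arrays, and was also named after its values were seen.

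Promoters of Ccnb2 and Cdc20 are shown because most members of this list shared 1 order of the arrays. Each line gives 120 bases before the RefSeq start in GRCm38.p6, on the gene's strand, with CCAAT or its reverse complement ATTGG and TTTGAA or its reverse complement TTCAAA in capitals. Ccnb2 lies at chr9:70421555-70421674 (minus strand) and Cdc20 at chr4:118437344-118437463 (minus strand).
Ccnb2: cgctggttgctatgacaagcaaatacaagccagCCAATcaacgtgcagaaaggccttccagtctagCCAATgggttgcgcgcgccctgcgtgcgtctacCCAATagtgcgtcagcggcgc
Cdc20: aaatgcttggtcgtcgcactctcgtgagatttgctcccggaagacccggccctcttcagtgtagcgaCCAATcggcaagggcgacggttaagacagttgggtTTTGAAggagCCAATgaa
CCAAT is the core of the NF-Y binding motif, and TTTGAA is the core of the CHR element of many mitotic genes. In these windows Ccnb2 has 3 matches to CCAAT, and Cdc20 has 2, with 1 to TTTGAA. Over 250 bases before the start, on both strands, CCAAT was found in 25 of the 31 tested cell cycle genes with a promoter in the table, against 34.5% of all 27025 promoters. TTTGAA was found in 8 of the 31, against 16.3% of all. The matches marked in the windows do not overlap each other. A match describes the letters and is no evidence of binding.

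Growth arrest genes and cholesterol synthesis also had opposite pair medians. Of the 18 tested cell cycle inhibitors and p53 targets, 15 were lower in pair 1 and higher in pair 2, against 33.6% of all features. Their pair medians were -0.31 and 0.23. Both side 1 arrays lay within the floating range in 15 of the 18, against 40.6% of all features. Of the 18, 0 had a higher mean on side 1 (1 after quantile normalization), beside 49.0% of all features. Btg1, an antiproliferative gene, was at 5.49 and 4.60 on side 1 against 5.57, 4.62 and 5.71. Cdkn2a, which encodes the Ink4a and Arf inhibitors, was at 5.68 and 5.52 against 5.72, 5.44 and 5.89.

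Of the 24 tested genes of cholesterol synthesis, 0 had a higher mean on side 1 (1 after quantile normalization), beside 49.0% of all features. No member was called. The median side difference was -0.12, and the pair medians were -0.37 and 0.20. Of the 24 members, 21 were lower in pair 1 and higher in pair 2, against 33.6% of all features. Without KO adherent 1 the side median was 0.16. Hmgcs1, the synthase that starts the mevalonate pathway, was at 5.64 on KO adherent 1, 6.46 on the array labelled WT floating 2, and 6.08, 6.26 and 6.27 on the floating arrays. KO adherent 1 was thus the lowest array for this gene and the array labelled WT floating 2 the highest.

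Most neuronal and Notch genes ran the other way, higher in pair 1 and lower in pair 2. The median of 18 pan-neuronal genes was 0.28 in pair 1 and -0.36 in pair 2, with 13 members in that order, against 29.0% of all features. For 18 tested genes of the Notch pathway, the medians were 0.28 and -0.20, again with 13 members. For 10 proneural factors they were 0.30 and -0.25, with 6 members in that order and 3 higher in both pairs. Mapt, the microtubule protein tau, was at 4.95 and 4.35 on side 1 against 4.63, 4.74 and 4.92. Hes5, a Notch effector that keeps cells undifferentiated, was at 8.57 and 7.80 against 8.06, 8.27 and 7.48. Hey1, another Notch effector, was at 5.48 and 4.28 against 4.95, 4.63 and 5.14. Against this order, 3 Notch members were higher in both pairs, among them Notch1 (0.70 and 0.37) and Hes1 (0.21 and 0.32). A dimmer Notch1 probe gave 0.48 and -0.30. The pan-neuronal gene Syn1 was lower in both pairs (-0.57 and -0.21). Tubb3, a neuronal tubulin, was at 1.32 and 1.19 against 1.29, 1.05 and 1.51, and moved by at most 0.15 in either pair.

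In all, 22 of the 26 lists had pair medians of opposite sign. In 23 of the 26 the sign of the side median turned when 1 of the 5 arrays was left out.

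**Figure D4:**
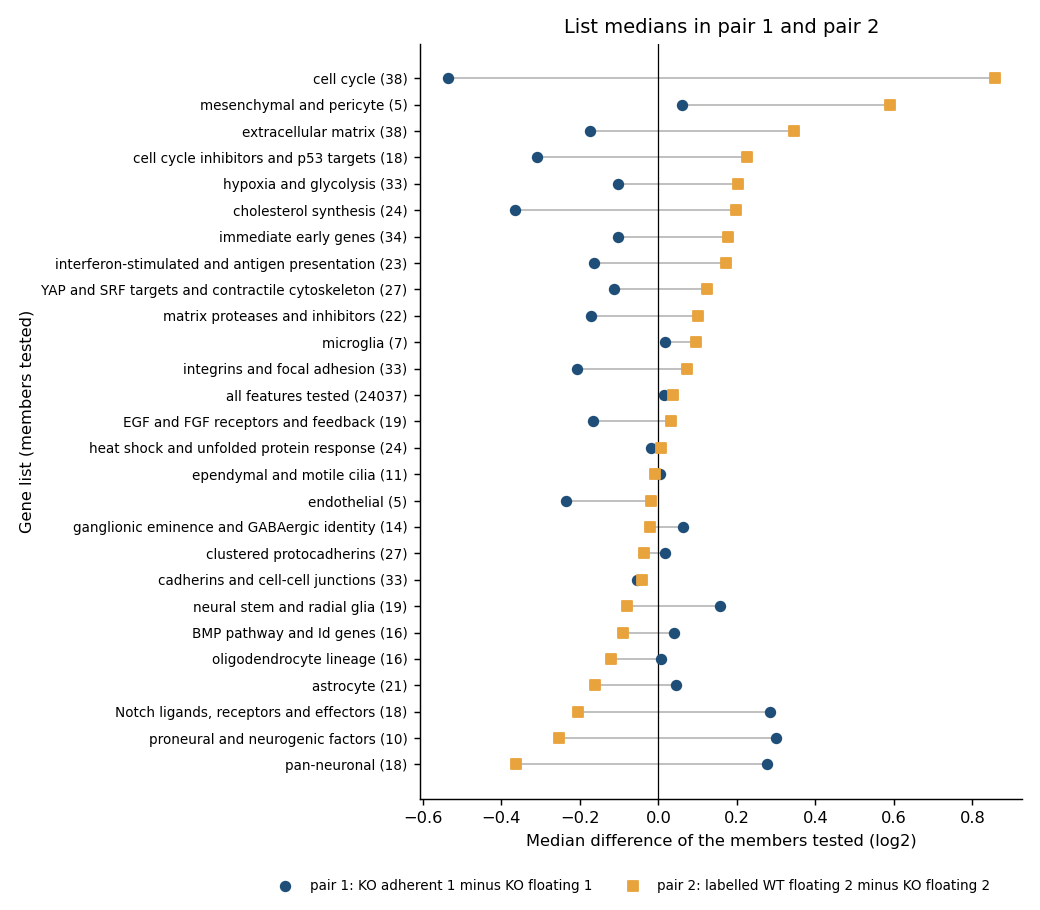
Median log2 difference of the tested members of 26 gene lists and of all features tested (y axis, number tested in brackets), in pair 1 (circles) and pair 2 (squares). Cell cycle genes have the widest gap, from -0.54 to 0.86, and pan-neuronal genes run in the reverse order, from 0.28 to -0.36.

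Genes of attachment gave no call between the sides, which is no evidence of likeness, because the test was conservative on these arrays. Of 40 integrin and focal adhesion genes 33 were tested, and 0 were called. Their side median was -0.14 (0.00 without KO floating 3), with 11 members higher and 22 lower, and their pair medians were -0.21 and 0.07. Itgb1, the beta subunit shared by most matrix-binding integrins, was at 2.29 and 2.28 on side 1 and at 2.54, 2.05 and 3.07 on the floating arrays, a difference of -0.27 (SE 0.33, limma adjusted p = 1). Itga6, a laminin-binding alpha subunit, was at 5.33 and 5.12 against 5.21, 5.18 and 5.76. Itga4 was at -0.08 and 0.38 against -0.27, 0.20 and -0.57, and Tln1, which links integrins to actin, at 4.79 and 4.79 against 4.66, 4.64 and 4.87. The side 1 values of Itgb1 lay within the floating range, and those of the others overlapped it.

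Matrix genes were split in direction. Of 47 extracellular matrix genes 38 were tested, 31 of them above background on all 5 arrays, with 20 higher and 18 lower on side 1 and a median of 0.03 (-0.04 over those 31). The pair medians were -0.18 and 0.35. Of the 38 members, 25 were lower in pair 1 and higher in pair 2, against 33.6% of all features. Tnc, the matrix glycoprotein tenascin C of stem cell niches, was at -1.37 and -0.81 against -0.81, -1.56 and -0.31. Sparc, a matrix-binding secreted protein, was at 8.71 and 8.70 against 8.93, 8.39 and 9.19. Col3a1, a fibrillar collagen, ranked first in size among the members that ran one way in both pairs, by values of which some lay below background. It was at -1.91 on KO adherent 1, -3.61 on the array labelled WT floating 2, and -3.51, -5.85 and -3.77 on the floating arrays, where it was above background on 1 of 3. The pair 1 difference of Col3a1 was 1.60. The pair 2 difference was 0.42 once KO floating 2 was raised to its lowest signal above background. The sides overlapped, and Col3a1 was not called (limma adjusted p = 1).

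Proteases, junctions and the cytoskeleton gave values of the same order. The 22 tested matrix proteases and inhibitors had a side median of -0.12, and Adam9, a membrane-bound metalloprotease, was lower on side 1 without overlap, at 4.96 and 4.96 against 5.18, 5.21 and 5.33. The 33 cadherins and junction genes had a median of 0.00, and Cdh2, the neural cadherin, was at 5.51 and 5.84 against 5.45, 5.82 and 5.32. Gjb2, a gap junction protein, was lower on side 1 without overlap, at -3.94 and -3.94 against -3.38, -3.69 and -3.71. The 27 clustered protocadherins, which label single neurons, had a median of 0.09, and probes for these near-identical genes may share signal.

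YAP and SRF targets, which respond to tension on the cytoskeleton, had a median of -0.08 over 27 tested members, with pair medians of -0.11 and 0.12. Actb was at 8.82 and 8.85 against 8.97, 8.77 and 8.90. Ccn2, a YAP target, was at -0.60 and -2.89 against 0.52, -4.82 and 1.22. The value on KO floating 2 was not above background. The pair differences of Ccn2 were -1.12 and, with that value raised to the array's lowest signal above background, 1.14.

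Immediate early genes, which answer to stimuli within minutes, were lower on the array labelled WT floating 2 and KO floating 2 than on the other 3 of the 5 arrays. Of 38 genes 34 were tested, 33 of them above background on all 5 arrays, and 0 were called. The median member was at 2.51 on KO adherent 1, 2.98 on KO floating 1 and 2.82 on KO floating 3. It was at 0.05 on the array labelled WT floating 2 and -0.32 on KO floating 2. Both were below the other 3 in 33 of 34 members, against 34.5% of all features. On the arrays outside the comparison the median was 2.62 (WT floating 1), 2.68 (WT floating 3) and 2.84 (the array labelled KO adherent 2). The last of these also has number 2 and was not low, so the low level did not hold for every array of that number.

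Nr4a1, an orphan nuclear receptor, was at 7.93 on KO adherent 1, 7.96 on KO floating 1 and 7.96 on KO floating 3, and at 4.50 and 4.83 on the array labelled WT floating 2 and KO floating 2. Fos, a subunit of the AP-1 factor, was at 6.79, 6.78 and 6.69 against 2.84 and 3.54. Egr1, a zinc finger factor, was at 7.48, 7.60 and 7.52 against 5.25 and 4.96. Among the 5 arrays these groups of 3 and 2 did not overlap for these genes. The array labelled KO adherent 2, outside the comparison, was at 8.01 for Nr4a1, 6.37 for Fos and 7.18 for Egr1, well above both low arrays.

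Gadd45g, a stress-induced growth inhibitor, was at 6.91, 7.38 and 7.49 against 4.46 and 4.77. Ccn1, a secreted matricellular protein on the list of YAP and SRF targets, had the same order, at 4.31, 4.66 and 4.32 against -0.10 and 0.33. Within the pairs the differences were smaller. The pair differences of Nr4a1 were -0.02 and -0.33, those of Fos 0.02 and -0.70, and the list medians -0.10 and 0.18. Within slide row 1 the median difference of the list between sides was -1.14, and within row 2 it was -0.09.

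The side median of the immediate early genes moved with single arrays. It was -0.51 with all 5 arrays, 0.81 without the array labelled WT floating 2, -1.61 without KO adherent 1, -1.58 without KO floating 2, -0.06 without KO floating 1 and 0.02 without KO floating 3.

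**Figure D5:**
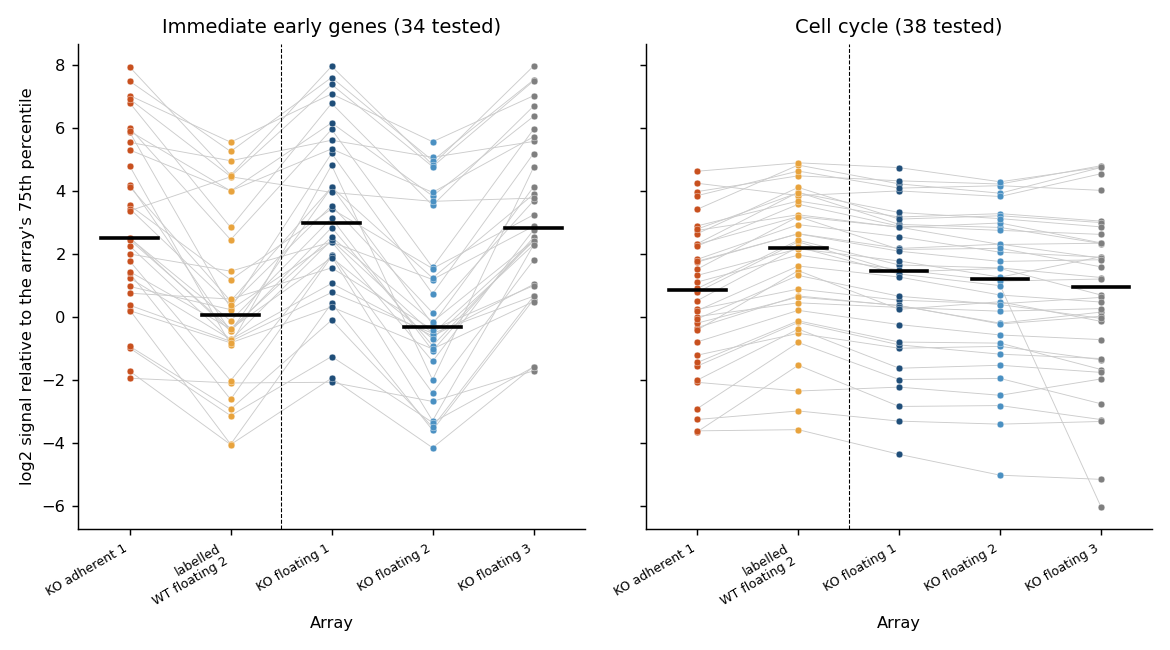
Level of each tested member (points, joined by grey lines per gene) of the immediate early list (left) and the cell cycle list (right) on the 5 arrays (x axis), as log2 signal relative to the array's 75th percentile (y axis); black bars are medians and the dashed line parts the sides. Immediate early medians are low on the array labelled WT floating 2 and KO floating 2 (0.05 and -0.32), and the cell cycle median is highest on the array labelled WT floating 2 (2.19).

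Promoters of Nr4a1 and Fos are shown as examples of the genes that were low on the array labelled WT floating 2 and KO floating 2. Each line gives 120 bases before the RefSeq start in GRCm38.p6, plus strand, at chr15:101266726-101266845 for Nr4a1 and chr12:85473770-85473889 for Fos, with CGTCA or its reverse complement TGACG in capitals.
Nr4a1: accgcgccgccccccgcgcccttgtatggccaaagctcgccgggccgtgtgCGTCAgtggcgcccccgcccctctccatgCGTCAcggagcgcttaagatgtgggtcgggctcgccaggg
Fos: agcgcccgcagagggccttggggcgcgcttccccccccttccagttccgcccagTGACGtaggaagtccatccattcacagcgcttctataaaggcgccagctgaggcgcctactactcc
CGTCA is the core of the cAMP response element bound by CREB. In these windows Nr4a1 has 2 matches and Fos has 1. Over 250 bases before the start, on both strands, CGTCA was found in 16 of the 28 tested immediate early genes with a promoter in the table, against 17.9% of all 27025 promoters. It was found in 8 of the 31 cell cycle genes. The shares were not matched for base composition, and a match is no evidence of binding.

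Hypoxia and glycolysis genes were low on the same arrays. The array labelled WT floating 2 and KO floating 2 were below the other 3 of the 5 in 30 of 33 tested members, against 34.5% of all features. The median member was at 5.16 on KO adherent 1, 3.92 on the array labelled WT floating 2, and 5.08, 3.91 and 5.25 on the floating arrays. On the array labelled KO adherent 2 it was at 5.44, above all 5. Vegfa, the vascular growth factor, was at 5.73 and 4.60 against 5.66, 4.28 and 5.73. Ddit4, an inhibitor of mTOR signalling, was at 6.20 and 4.99 against 6.13, 4.54 and 6.49. Gapdh, a glycolytic enzyme, was at 9.21 and 8.84 against 9.32, 8.62 and 9.34.

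Over the whole array, more features differed between numbers 1 and 2 of these 4 arrays than between the sides. On both sides 733 features were 2-fold or more higher on number 1 than on number 2 (3.05%), and 47 were lower (0.196%), against 51 and 5 between sides in both pairs. These counts include dim features. Among features above background on all 5 arrays the 51 and 5 became 0 and 3, and the counts between numbers are not given. The difference of number 1 minus number 2 on side 1 (KO adherent 1 minus the array labelled WT floating 2) had a correlation of 0.450 (Spearman 0.506) with that on side 2 (KO floating 1 minus KO floating 2), over 24037 features from 4 arrays. Over the 20551 features above background on all 5 arrays it was 0.477 (Spearman 0.507). The sources used here do not say what the number stands for. KO floating 2 and the array labelled WT floating 2 also lie side by side in slide row 1, and the part of position was not tested. Their 75th percentiles of signal, 856 and 865, were the highest of the 8 arrays. The part of this scaling in the counts was not tested.

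Stem cell and glial lists had side medians near 0, and 0 of their members were called. For 19 neural stem and radial glia genes the side median was 0.05, and Sox2, a transcription factor of stem cells, was at 3.89 and 3.72 against 3.73, 3.81 and 3.92. Nes, the intermediate filament nestin, was at 4.31 and 4.81 against 4.37, 4.73 and 4.03. For 14 ganglionic eminence genes the median was -0.04. Lhx6, a factor of cortical interneurons, was at 3.27 and 2.40 against 2.74, 2.31 and 2.54. For 21 astrocyte genes the median was 0.00, and for 16 oligodendrocyte lineage genes -0.03. Olig1 and Olig2, factors of that lineage, differed by 0.00 (SE 0.30) and 0.36 (SE 0.34).

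The remaining signalling and stress lists had side medians of -0.19 (heat shock and unfolded protein response, 24 tested), -0.09 (EGF and FGF receptors and feedback, 19 tested), -0.11 (BMP pathway and Id genes, 16 tested) and -0.05 (interferon-stimulated and antigen presentation genes, 23 tested). None of their members was called. Trib3, a stress kinase-like protein, was at 3.96 and 1.16 on side 1 against 3.56, 0.47 and 4.88, again low on the array labelled WT floating 2 and KO floating 2. Id1, an inhibitor of differentiation downstream of BMP, was at 6.22 and 4.25 against 5.93, 4.54 and 5.93, in the same order. Bmpr1a, a BMP receptor, was higher on side 1 without overlap, at 3.72 and 3.67 against 3.55, 2.84 and 3.50, a difference of 0.40 (SE 0.28, limma adjusted p = 1). Areg, a ligand of the EGF receptor, was lower without overlap, with pair differences of -0.12 and -0.57.

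Of the lists for cells that the culture could also hold, few members were measured: 7 of 15 for microglia, 5 of 12 for endothelium, 5 of 14 for mesenchyme and pericytes, and 11 of 18 for ependyma and cilia. Their side medians were -0.05, 0.03, 0.17 and 0.07, and 0 members were called. Some members passed the filter through side 1 alone (3, 1, 3 and 2 of them). Over the 4, 4, 2 and 9 members above background on all 5 arrays the side medians were -0.17, -0.03, -0.02 and -0.19, so the sign turned in 3 of the 4 lists. The defining mesenchymal markers Pdgfrb and Lum were above background on no array.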

How the data were processed

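Single-colour (Cy3) Agilent arrays of 1 slide were used as deposited by the authors: the scanner files hold the linear intensity of each spot. The version of Feature Extraction is 11.0.1.1 per the file headers and 9.1.3.1 per the submitters' processing notes. Log2 of the deposited processed signal was taken, the 75th percentile over non-control spots subtracted, outlier spots left out, and repeated spots averaged. The authors' deposited value table holds the same intensity (over 99.2% of values within 0.01%) and served as an alternative.

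A probe was tested if well above background on every array of a side, and the brightest probe stood for a gene. Without versions, 27235 of 55681 probes matched a gene of RefSeq GRCm38.p6; others stayed single features. The sides, 2 arrays against 3, were compared by limma 3.58.1 under R 4.3.3 (lmFit and eBayes, two-sided, no block), with Benjamini-Hochberg adjustment over all features. The number of arrays limits the precision. The fit was tested on simulated data. Promoters came from the RefSeq table.

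The arrays, the sides, the gene lists and the rule for named genes were chosen with earlier results of these data known. The rule named Cbx3. It named up to 12 genes per direction that were 2-fold the same way in both pairs without overlap, above background on the higher side, filled to 6 without the 2-fold minimum. It named genes past the threshold, of which there were none. Of each list it took up to 2 members that ran the same way in both pairs and the 2 brightest, then fixed readouts, and up to 6 opposed genes per pattern. Alternatives were other scalings, normexp with an offset of 50, filters, blocks, an 8-array fit, the groups as labelled and leaving out each array.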

Additional observations from a re-analysis of the deposited data

How the results depend on the processing

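The count of features called between the sides stayed at 0 under every alternative run with limma: quantile scaling, the median of detected probes, normexp, the authors' value table, other filters, every probe, an intensity trend with robust eBayes, the slide row as a block, the groups as labelled and leaving out each array (0 to 0). Features with an unadjusted p under 0.05 ranged from 54 with the filter on all 5 arrays to 1672 without a filter, and were 842 without KO floating 2. In the 8-array fit the smallest adjusted p was 0.506. With the replicate block the count was also 0, with 580 features at an unadjusted p under 0.05. Deviations of same-numbered arrays from their side means correlated at 0.205 and 0.441. The 2 arrays of side 1 deviate from their mean by equal and opposite amounts, so these are not 2 separate checks. With only 2 pairs they are too few to show whether the numbers pair the samples. KO adherent 1 alone, an arm of 1 array assumed to vary like the floating arrays, also gave 0 calls in all its alternatives (0 to 0 when 1 floating array was left out); its replicate block left no residual freedom and was not run.

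The 56 features 2-fold the same way in both pairs became 2 with normexp, 3 with the filter on all 5 arrays, 356 without a filter and 241 at 1.5-fold. Raising values below background to the lowest signal above it, chosen after seeing the data, left 7. The pair correlation of -0.285 was -0.495 with normexp, -0.508 with the filter on all 5 arrays and -0.0653 without a filter. It stayed negative throughout. Of 129 named genes, 0 were called in any setting. The sign of the side difference turned in 43 without the array labelled WT floating 2 and in 32 with the replicate block. It turned in 0 in the 8-array fit, which was fixed in advance, because that fit keeps the same side means.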
